A study of Homo sapiens with 24 samples.

Results

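LNCaP cells transfected transiently with a HIP1 construct were compared with LNCaP cells transfected with an empty vector, on 12 of the 24 Illumina expression arrays of the series. The arrays were chosen by their titles: 6 arrays are titled as LNCaP overexpressing HIP1 transiently and 6 as its empty vector control, and in both groups RNA was taken on day 4 after transfection. The other 12 arrays hold another prostate line and enter only the background level, which was set over all 24 arrays, and 1 alternative fit. LNCaP is an androgen-responsive prostate cancer line grown from a lymph node metastasis, and both groups were cultured in RPMI with fetal bovine serum. The labels call the arrays of each group biological replicates and do not say whether each was a separate transfection. The sources used here do not give the plasmid, the share of cells that took it up or the amount of HIP1 protein, and transient transfection leaves a mixture of cells with and without it. Because the HIP1 probe was not called higher in the first group (below), its arrays are named by their label.

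HIP1 is an adaptor protein of clathrin-coated pits: it binds clathrin, the AP2 complex, actin and phosphoinositides, and helps cells take up receptors from their surface. It is known in prostate cancer as a protein whose level is raised in many tumours. A cell that prepares to divide first loads the MCM helicase onto its replication origins, then copies its DNA with the polymerases and fork factors, and later builds the spindle. The genes for the first steps are classical targets of the E2F transcription factors, and those for the spindle are classical targets of the DREAM complex and of FOXM1 and B-MYB.

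The deposited values are log2 probe intensities. A probe was tested when it lay above a background level of log2 6.97 on at least 6 of the 12 arrays, which kept 12022 of 48803 probes. They stood for 8378 genes, each represented by its brightest tested probe with a single symbol. Differences below are HIP1-labelled minus vector on the log2 scale. A gene or probe is called when its limma p-value, adjusted by Benjamini-Hochberg over the 12022 probes, is below 0.05, and the words higher, lower, rose and fell are used of called genes only. The median SD of a probe was 0.120 among the HIP1-labelled arrays and 0.126 among the vector arrays. The gene lists below were chosen with earlier results of these data known, so their shares of calls are descriptions and not tests.

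The luminal prostate markers KLK2, KLK3, TMPRSS2, FOLH1, HOXB13, KRT8 and KRT18 lay above the background level on 12 of 12 arrays. The basal keratins KRT5 and KRT14, the fibroblast genes COL3A1, DCN and LUM, the leukocyte genes PTPRC, CD3E and CD14, the endothelial CDH5 and the mesenchymal ZEB1 lay above it on 0 arrays. VIM and VWF lay above it on 12 arrays, CD68 on 11, and COL1A1 and PECAM1 on 1 each.

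Vector arrays 3 and 4 and HIP1-labelled array 4 stood apart from the rest. Their deviations from their group means correlated with each other over the tested probes at 0.459 between HIP1-labelled array 4 and vector array 3, at 0.324 between HIP1-labelled array 4 and vector array 4, and at 0.179 between the 2 vector arrays, while pairs among the other arrays ranged from -0.330 to 0.160. Vector array 6 lay nearest to the HIP1-labelled arrays on the first principal component. Counts that differ by more than 1.5 times without the 3 arrays are given both ways.

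**Figure D1:**
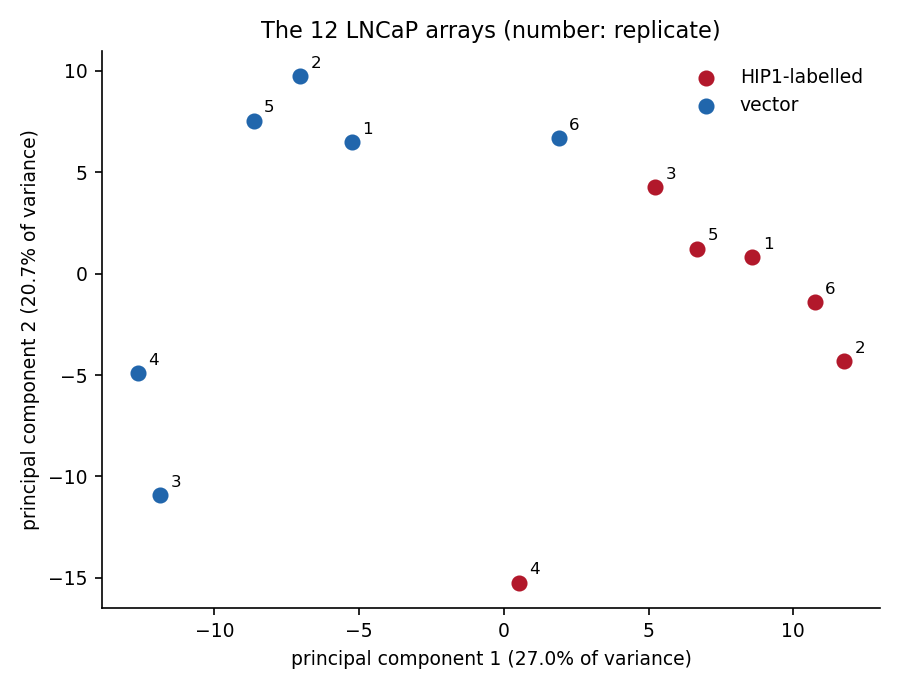
The 12 LNCaP arrays on the first 2 principal components of the tested probes (axes in component scores, with the percentage of variance each holds: 27.0% and 20.7%). Red points are HIP1-labelled arrays and blue points vector arrays, numbered by replicate. The HIP1-labelled arrays have first-component scores of 0.52 to 11.8, 5 vector arrays have scores of -12.6 to -5.25, and vector array 6 has 1.89. HIP1-labelled array 4 and vector arrays 3 and 4 lie lowest within their groups on the second component.

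The probe for the transfected gene was not called higher in the HIP1-labelled arrays. HIP1 had a lowest, median and highest log2 intensity of 7.11, 7.25 and 7.52 in the HIP1-labelled arrays, against 7.19, 7.44 and 7.59 in the vector arrays. The groups overlapped. The means were 7.29 ± 0.15 and 7.40 ± 0.16 (SD, n = 6 each), a difference of -0.11 with a 95% confidence interval of -0.29 to 0.06 (limma adjusted p = 0.451; exact two-sided permutation p = 0.232 over 924 splits of the arrays). The sources used here do not say whether this probe detects the construct's transcript, so it could not check the labels. The 2 probes for HIP1R, the closest relative of HIP1, lay below the filter.

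The groups nevertheless differed at 880 probes (7.32% of those tested), 378 of them higher (3.14%) and 502 lower (4.18%) in the HIP1-labelled arrays. By gene, 665 of 8378 were called (7.94%), 279 higher (3.33%) and 386 lower (4.61%). The changes were small: the median called rise was 0.30, the median called fall -0.32, and 0 called probes changed by more than 1 log2 unit, or 2-fold. Past 0.5 log2, 20 genes rose and 45 fell. The median difference of all genes tested was 0.006. In 102 of the called rises and 212 of the called falls, the 6 HIP1-labelled values lay outside the range of the vector values on the side of the change. This separation, called or not, was found for 131 genes upward and 242 downward (1.56% and 2.89% of genes, and 1.5% and 2.54% of probes). At an unadjusted p below 0.05, 2605 probes passed. A fit that let both lines of the series share one estimate of the spread called 235 probes, 77 higher and 158 lower, all of them among the 880. That fit kept the calls of 53 of 114 named genes. It left 11 of the licensing, 11 of the polymerase and fork and 25 of the mitotic falls described below, 2 falls each in nucleotide synthesis and the G1 list, 4 in S-phase repair, 5 luminal rises, 1 histone rise and 1 rise among the ATF4 targets. It left 0 calls among the chaperone, heat shock, p53, FoxO, MYC, mitochondrial protein synthesis, respiratory chain, sterol and clathrin lists and 0 rises among the STAT3 targets or falls among the androgen response genes. Leaving out HIP1-labelled array 2, vector array 2 or vector array 5 left 519, 584 and 583 called probes. The count rose to 1193 without vector array 6 and to 978 without HIP1-labelled array 4.

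**Figure D2:**
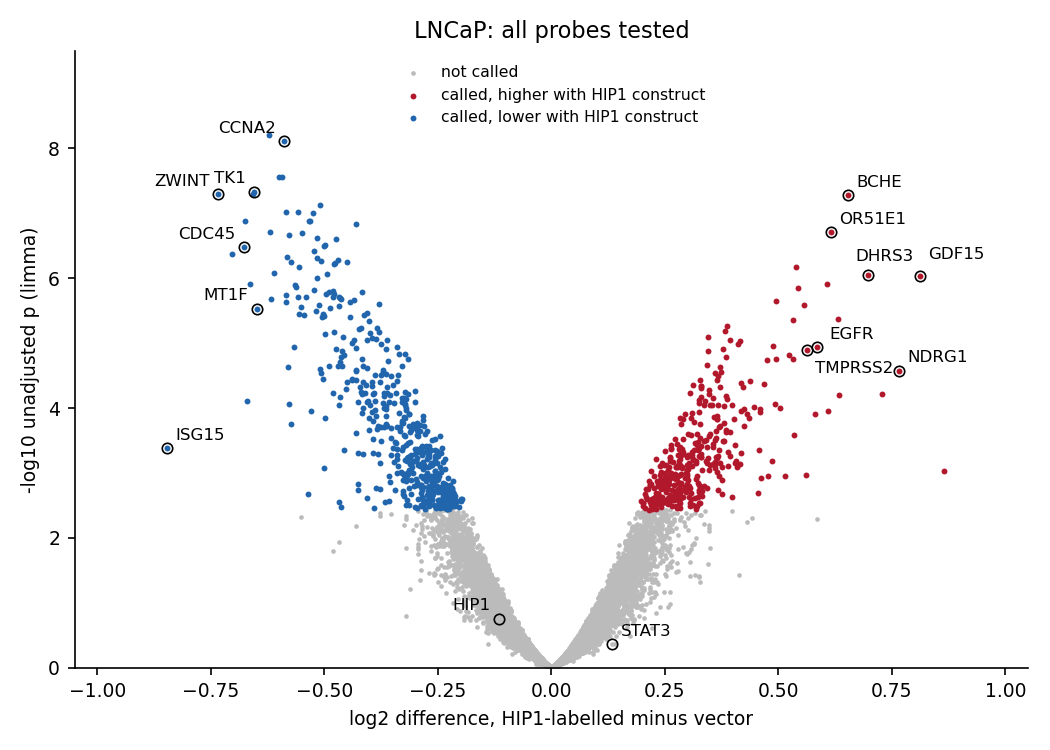
Difference between HIP1-labelled and vector arrays (horizontal axis, log2) against -log10 of the unadjusted limma p-value (vertical axis) for the 12022 tested probes. Red points are called higher (378), blue points called lower (502), grey points not called. Cell division genes such as ZWINT, CDC45, TK1 and CCNA2 stand high on the left, ISG15 has the most negative difference (-0.85), and HIP1 and STAT3 lie near the bottom.

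Most DNA replication genes tested were called lower. Of 19 tested genes for origin licensing and the replicative helicase, 14 were lower and 0 higher (73.7% called, against 7.94% of all genes), with a median difference of -0.44. Of 25 tested polymerase and fork genes, 15 were lower and 0 higher, with a median of -0.32. In 11 of the licensing genes and 11 of the polymerase and fork genes, all HIP1-labelled arrays lay below all vector arrays, which held for 2.89% of all genes tested. The mean over the 19 licensing genes was 8.93 at the lowest, 9.08 at the median and 9.24 at the highest of the HIP1-labelled arrays, against 9.39, 9.48 and 9.53 in the vector arrays. The 2 ranges did not overlap. In bulk RNA, fewer cells in S phase and less of these transcripts in each cell cannot be told apart.

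CDC45, the helicase cofactor that turns a licensed origin into an active fork, had 8.80, 9.39 and 9.42 (lowest, median, highest) in the HIP1-labelled arrays, against 9.79, 9.94 and 10.05 in the vector arrays. Every HIP1-labelled array lay below every vector array, with a difference of -0.68 (1.60-fold lower, limma adjusted p = 0.000159). MCM2, a subunit of the MCM helicase ring, had 8.92, 9.17 and 9.34 against 9.66, 9.82 and 10.02 in the vector arrays. It too was separated completely, at -0.67 (adjusted p = 0.000107). All 6 ring subunits fell: beside MCM2, MCM5 changed by -0.66, MCM4 by -0.55, MCM3 by -0.48, MCM7 by -0.47 and MCM6 by -0.44. The partners that load or start the ring fell as well. GINS2, part of the complex that joins CDC45 to the ring, changed by -0.62 (adjusted p = 0.000126), with 9.68 to 10.08 in the HIP1-labelled arrays and 10.32 to 10.61 in the vector arrays. MCM10 changed by -0.55 (its second probe by -0.25, also called), CDT1, the loading factor, by -0.44, ORC1 by -0.35, GINS3 by -0.32, the kinase gene CDC7 by -0.30 and GINS4 by -0.24. The origin recognition genes ORC2, ORC3, ORC5 and ORC6, which unlike ORC1 are present through the cell cycle, were not called (-0.11, -0.14, -0.19 and 0.00). GMNN, the inhibitor of CDT1, was not called either (-0.24, adjusted p = 0.194).

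At the fork, RNASEH2A, a subunit of the enzyme that removes RNA from DNA, had 8.46, 8.72 and 8.78 in the HIP1-labelled arrays, against 9.12, 9.28 and 9.39 in the vector arrays. FEN1, the nuclease that trims Okazaki fragments, had 10.26, 10.52 and 10.80 against 10.96, 11.14 and 11.28. Neither gene's groups overlapped, and the differences were -0.60 (adjusted p = 7.87e-05) and -0.58 (adjusted p = 0.00041). TIMELESS, which steadies the fork, changed by -0.53, the primase subunit PRIM1 by -0.52, the polymerase alpha subunit POLA2 by -0.47 and the histone chaperone subunit CHAF1B by -0.46. POLE2, PCNA (the sliding clamp), POLA1, CHAF1A, the clamp loader subunits RFC3, RFC4 and RFC5, the ligase LIG1 and RPA2 made up the rest of the falls, between -0.43 and -0.23, and RPA2 lost its call without the 3 arrays that stood apart (adjusted p = 0.188). The catalytic subunits POLD1 and POLE were not called (-0.11 and -0.20).

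Promoters of GINS2, PRIM1 and E2F2 (described below) are shown because they carry letters bound by E2F factors. RefSeq promoter windows (GRCh38.p14, from 250 bases before to 50 after each annotated start) were searched on both strands for TTCCCGC and TTGGCGC, patterns that can share bases with the CCAAT box searched below. The letters were in 62.5% of the promoters of called licensing genes (10 of 16) and in 60% of those of called polymerase and fork genes (9 of 15), and in 54.5% and 62.5% of those of all tested genes of the 2 lists, called or not, against 14.2% of the 10120 promoters of tested genes and 9.23% of all 35116 promoters in the table. They were in 26.8% of the promoters of genes with a called fall and in 8.75% of those of genes with a called rise. The E2F-type letters were not in the windows of CDC45, MCM2, EXO1, CCNA2, RNASEH2A or FEN1. The matches describe letters, not binding. The 120 bases before the start are printed for 3 genes that fell, with the match in capitals: GINS2 (chr16:85688955-85689074, minus strand, match beginning at base -31), PRIM1 (chr12:56752324-56752443, minus strand, base -24) and E2F2 (chr1:23531234-23531353, minus strand, base -41).
GINS2: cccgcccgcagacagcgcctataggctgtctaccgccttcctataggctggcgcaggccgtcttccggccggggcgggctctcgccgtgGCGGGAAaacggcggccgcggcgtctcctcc
PRIM1: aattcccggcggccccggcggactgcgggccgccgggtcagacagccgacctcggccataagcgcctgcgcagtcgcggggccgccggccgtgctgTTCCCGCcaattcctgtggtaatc
E2F2: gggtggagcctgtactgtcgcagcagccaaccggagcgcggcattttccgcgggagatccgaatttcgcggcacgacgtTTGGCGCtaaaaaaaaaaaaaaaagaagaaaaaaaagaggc

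Of 14 tested genes of nucleotide synthesis, 5 were lower and 0 higher (35.7% called, against 7.94% of all genes), with a median of -0.18. The 5 make or guard deoxynucleotides. DCK, which phosphorylates deoxynucleosides, was not called (-0.16, adjusted p = 0.331). TK1, thymidine kinase, had 9.68, 9.82 and 10.09 in the HIP1-labelled arrays, against 10.29, 10.46 and 10.70 in the vector arrays. The groups did not overlap and the difference was -0.66 (adjusted p = 7.87e-05). TYMS, thymidylate synthase, changed by -0.52, DUT, which keeps uracil out of DNA, by -0.44 at its brightest probe (its other 2 probes had 0.01 and -0.18 and were not called), and the ribonucleotide reductase subunits RRM2 and RRM1 by -0.43 and -0.37. RRM2 lost its call in 6 of the 12 fits that left out 1 array (HIP1-labelled 1, 2 or 4, vector 1, 2 or 5; adjusted p up to 0.0743). Genes of purine and pyrimidine base synthesis were not called: CAD had -0.21, CTPS1 -0.23, PAICS -0.08, GART -0.11 and ATIC -0.12.

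Among 11 tested genes of S-phase repair and checkpoint, 8 were lower and 0 higher (72.7% called, against 7.94% of all genes, median -0.36). EXO1, a nuclease of mismatch repair and end resection, had 7.78, 8.09 and 8.29 in the HIP1-labelled arrays, against 8.57, 8.72 and 8.84 in the vector arrays. The ranges were apart, and EXO1 changed by -0.66 (adjusted p = 7.87e-05). The checkpoint kinase gene CHEK1 changed by -0.48, UHRF1 and DNMT1, which copy DNA methylation, by -0.46 and -0.36, and the Fanconi anaemia gene FANCI by -0.37. FANCI lay above the background level on 3 of the HIP1-labelled arrays.

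Of 45 tested genes of mitosis and the kinetochore, 36 fell and 0 rose (80% called, against 7.94% of all genes, median -0.41), and in 28 of the 45 the groups did not overlap (2.89% of all genes for falls). MKI67, the gene of the proliferation marker Ki-67, was not called (-0.02, adjusted p = 0.888), nor were TOP2A (-0.23) and CCNB1 (-0.26). The list mean was 8.83, 8.92 and 9.05 in the HIP1-labelled arrays, against 9.27, 9.33 and 9.35 in the vector arrays, so that all 6 HIP1-labelled arrays lay below all 6 vector arrays. The counts of the licensing list (14) and of the mitotic list (36) were the same without the 3 arrays that stood apart. ZWINT, an outer kinetochore protein, had the largest of these falls, with 9.06, 9.21 and 9.52 in the HIP1-labelled arrays against 9.71, 9.99 and 10.20 in the vector arrays. No HIP1-labelled array reached the lowest vector array (-0.73, 1.66-fold lower, adjusted p = 7.87e-05). CCNA2, the cyclin of S phase and G2, had 8.60, 8.75 and 8.82 against 9.19, 9.32 and 9.43 in the vector arrays. It had the smallest adjusted p of the genes named here (-0.59, 4.72e-05) and SDs of only 0.08 and 0.09. CENPM, a centromere protein, changed by -0.59, CDCA5, which holds sister chromatids together, by -0.57, AURKB, the kinase of the chromosomal passenger complex, by -0.57 and STMN1, which destabilises microtubules, by -0.56. The passenger subunit BIRC5 was lower, with HIP1-labelled arrays close to each other: 9.04 to 9.10 in the HIP1-labelled arrays and 9.32 to 9.72 in the vector arrays (-0.47, adjusted p = 0.000206). CDC20, CDK1, AURKA, UBE2C, PLK1, CCNB2 and the transcription factor FOXM1 were among the other falls, between -0.53 and -0.36. FAM83D and POC1A, proteins of the spindle and the centriole, fell by 0.58 each. FAM83D lost its call in at least 1 alternative fit (adjusted p up to 0.0814).

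In the mitotic promoters another pattern was frequent. The letters TTTGAA and TTCGAA, forms of the cell cycle homology region through which the DREAM complex acts, were in 58.1% of the promoters of called mitotic genes (25 of 43) and 62.7% of those of all tested mitotic genes (32 of 51), against 11.5% of the promoters of tested genes and 16.4% of all promoters, and in 24.3% of those of genes with a called fall and 11.1% of those of genes with a called rise. CCAAT was in 65.1% of the promoters of called mitotic genes, 68.6% of those of all tested mitotic genes and 62.5% of those of called licensing genes. The share was 49.4% for genes with a called fall, 35.5% for genes with a called rise and 36.2% for tested genes, so CCAAT was not particular to the mitotic list. The homology region letters were in 6.25% of the promoters of called licensing genes. The stretches for ZWINT (chr10:56361260-56361379, minus strand, match at base -31) and CDCA5 (chr11:65084041-65084160, minus strand, base -26) are printed as examples, in the same form as above.
ZWINT: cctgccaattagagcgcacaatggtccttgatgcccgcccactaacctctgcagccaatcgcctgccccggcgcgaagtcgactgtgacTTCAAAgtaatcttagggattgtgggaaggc
CDCA5: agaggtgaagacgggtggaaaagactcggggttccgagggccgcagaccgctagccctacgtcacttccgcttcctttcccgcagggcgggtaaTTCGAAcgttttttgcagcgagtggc

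The regulators upstream of these genes moved less uniformly. Of 19 tested genes of the G1 cyclins and the E2F and RB families, 6 were lower and 1 was higher (36.8% called, against 7.94% of all genes, median -0.14). E2F2, an activating E2F, had 7.95, 8.16 and 8.37 in the HIP1-labelled arrays, against 8.51, 8.74 and 8.91 in the vector arrays. The groups were separate (-0.58, adjusted p = 0.000205). E2F7, an E2F that represses transcription, changed by -0.43, the phosphatase gene CDC25A by -0.39, CCNE1, the cyclin of S-phase entry, by -0.37, CCND3 by -0.27 and CDK4 by -0.25. CCND3 lost its call without HIP1-labelled array 1 or 6 or vector array 2, 4 or 5 (adjusted p up to 0.0652) and without the 3 arrays that stood apart (0.0672), and 2 genes were called higher without HIP1-labelled array 4 or vector array 6. CDKN1A, which encodes the cyclin-dependent kinase inhibitor p21, was the rise. It had 12.30, 12.49 and 12.61 in the HIP1-labelled arrays, against 11.98, 12.06 and 12.48 in the vector arrays, where array 6 held the highest value and the other 5 lay at or below 12.14 (0.35, adjusted p = 0.01). CCND1 (0.09), E2F3 (-0.11), E2F4 (-0.07), RB1 (0.20) and RBL2 (0.16) were not called. CDKN1B, the gene of the inhibitor p27, had a difference of 0.22 and an adjusted p of 0.0559.

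The tested histone genes, unlike the replication lists, had calls in both directions. Of 18 tested, 2 rose and 2 fell (22.2% called, against 7.94% of all genes), with a median of -0.01. H2BC5 had 9.69, 9.82 and 10.07 in the HIP1-labelled arrays, against 9.09, 9.24 and 9.59 in the vector arrays. No arrays overlapped (0.54, adjusted p = 0.000366), and H2BC21 rose by 0.30. H2AX, the variant marked at DNA breaks, and H2AZ1 changed by -0.33 and -0.25, and H2AZ1 kept its call only without HIP1-labelled array 3 or 5 or vector array 3 or 5, with adjusted p up to 0.103 in the other 8 fits that left out 1 array and 0.11 without the 3 arrays that stood apart. Without vector array 6, 4 histone genes were called higher.

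**Figure D3:**
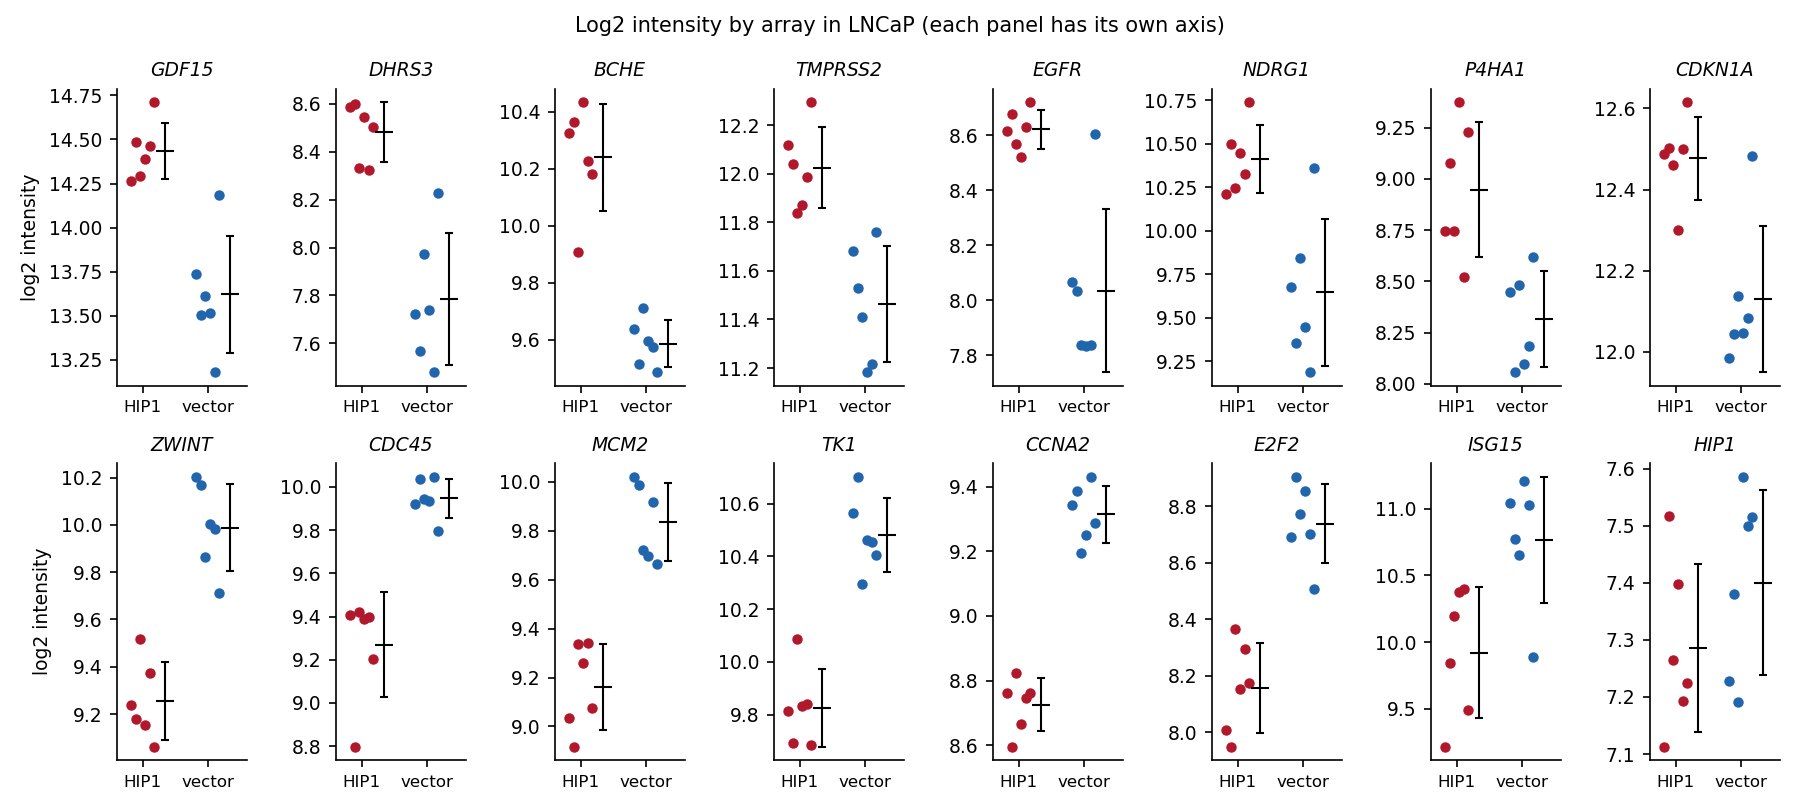
Log2 intensity on each of the 12 arrays (vertical axis, its own range in every panel) for 16 genes, with HIP1-labelled arrays in red on the left and vector arrays in blue on the right; the black bar and whiskers give the mean and SD of 6 arrays. In the lower row ZWINT, CDC45, MCM2, TK1, CCNA2 and E2F2 have no HIP1-labelled array as high as any vector array, while HIP1 overlaps. In the upper row vector array 6 is the highest vector point for every gene except BCHE.

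Among the rises, the largest change in a gene whose groups did not overlap was that of GDF15, a secreted factor of the TGF-beta superfamily that is induced by cell stress. It had 14.26, 14.43 and 14.71 in the HIP1-labelled arrays, against 13.18, 13.56 and 14.18 in the vector arrays. The lowest HIP1-labelled array was above the highest vector array (0.81, 1.76-fold, adjusted p = 0.000271). DHRS3, a short-chain dehydrogenase that acts on retinal, had 8.32, 8.52 and 8.60 against 7.48, 7.73 and 8.23 in the vector arrays. It rose by 0.70 (adjusted p = 0.000271). NUPR1, a small stress-induced chromatin protein, rose by 0.61 (adjusted p = 0.000339). The eIF4E kinase gene MKNK2 rose by 0.56 at its brightest probe (its second probe had 0.31, adjusted p = 0.0555), SAT1, which acetylates polyamines for their removal, by 0.54, TMC4 by 0.49, the epithelial sodium channel subunit SCNN1G by 0.49, RIMKLA by 0.42 at its brightest probe and CTBS, a lysosomal chitobiase, by 0.42. The SCNN1G probe lay above the background level on 6 HIP1-labelled and 3 vector arrays, so its vector mean (6.92) is at background. A second probe of RIMKLA had 0.04 and was not called (adjusted p = 0.726). The largest fall outside cell division without overlap was that of MT1F, a metal-binding metallothionein, with 10.50, 10.64 and 10.93 in the HIP1-labelled arrays against 10.98, 11.23 and 11.75 in the vector arrays. It changed by -0.65 (adjusted p = 0.000494). DHRS3, NUPR1, SAT1 and MT1F kept their calls whichever array was left out. Each lost its call in at least 1 alternative fit with all 12 arrays (adjusted p up to 0.221, 0.0725, 0.361 and 0.282). GDF15, MKNK2, TMC4, SCNN1G, RIMKLA and CTBS stayed called in every fit that tested their brightest probe.

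GDF15 and NUPR1 belong to a list of 38 tested targets of ATF4, the transcription factor of the integrated stress response. In it 7 genes rose and 0 fell (18.4% called, against 7.94% of all genes), with a median of 0.08. The list mean was 10.29, 10.37 and 10.44 in the HIP1-labelled arrays, against 10.20, 10.23 and 10.27 in the vector arrays, and the ranges did not overlap. TRIB3, a pseudokinase, rose by 0.32 (adjusted p = 0.012) and STC2, a secreted glycoprotein, by 0.26. The bZIP factor genes CEBPG, DDIT3 and CEBPB rose by 0.36, 0.32 and 0.26. CEBPG lost its call without HIP1-labelled array 2 or vector array 5 (adjusted p up to 0.0535), and the list then had 4 rises. DDIT3 kept its call only without HIP1-labelled array 3 or 4 or vector array 3 or 6, and CEBPB only without HIP1-labelled array 3 or 4 or vector array 6 (adjusted p up to 0.102 and 0.104 in the rest). The amino acid genes of the same list were not called: ASNS had 0.02, PSAT1 0.08, PHGDH 0.04, CHAC1 -0.02, SLC7A11 0.16 and SESN2 -0.01, and ATF4 itself had 0.11. Among 21 tested chaperones and unfolded protein response genes of the endoplasmic reticulum, 3 rose and 0 fell (14.3% called, against 7.94% of all genes). DNAJB9, a co-chaperone of BiP, had 10.17 to 10.59 in the HIP1-labelled arrays and 9.88 to 10.21 in the vector arrays (0.42, adjusted p = 0.00304). XBP1 and SYVN1 rose by 0.23 and 0.25, and a second XBP1 probe had 0.21 and was not called (adjusted p = 0.0557). DNAJB9 was the only call of this list without HIP1-labelled array 1, 2 or 6, without vector array 1, 2, 4 or 5 and without the 3 arrays that stood apart, with adjusted p up to 0.0888 for XBP1 and 0.101 for SYVN1 when 1 array was left out. SYVN1 kept its call only without HIP1-labelled array 3 or vector array 3. Of 16 heat shock genes only HSPA1B was called (6.25%, against 7.94% of all genes). It had 0.46 (adjusted p = 0.025) and lost its call without HIP1-labelled array 2, 5 or 6 or vector array 4 (adjusted p up to 0.0691). HSPA1B has a near-identical copy, HSPA1A, whose transcripts its probe may also catch.

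Hypoxia response genes, the targets of HIF that adapt cells to low oxygen, were called in part and had wide ranges. Of 26 tested, 14 rose and 0 fell (53.8% called, against 7.94% of all genes), with a median of 0.31. The list mean was 9.55, 9.62 and 9.79 in the HIP1-labelled arrays, against 9.10, 9.30 and 9.66 in the vector arrays. Here the groups overlapped: vector array 6 had the 9.66, above 4 of the HIP1-labelled arrays, while the other 5 vector arrays lay at or below 9.36. Without vector array 6, 18 of the genes were called, without HIP1-labelled array 6, 9, and in the fit with the spread shared by both lines, 6. NDRG1, a stress and differentiation gene that is also an androgen target, had 10.21, 10.39 and 10.74 in the HIP1-labelled arrays, against 9.19, 9.56 and 10.36 in the vector arrays. Its ranges touched through vector array 6 alone (0.77, 1.70-fold, adjusted p = 0.00226). P4HA1, a collagen prolyl hydroxylase, had 8.52, 8.91 and 9.37 against 8.06, 8.32 and 8.62 in the vector arrays. Only the lowest HIP1-labelled array fell within the vector range (0.63, adjusted p = 0.00389). PFKFB4, a bifunctional glycolytic enzyme, rose by 0.61, ERO1A, the oxidase of disulfide formation in the endoplasmic reticulum, by 0.58, and ADM, the vasodilator adrenomedullin, by 0.50. The mitophagy receptors BNIP3L and BNIP3 rose by 0.46 and 0.41 and lost their calls without the 3 arrays that stood apart (0.38 and 0.36, adjusted p = 0.108 and 0.0668). PFKFB3 rose by 0.39, and EGLN1, the oxygen sensor that marks HIF for destruction, by 0.37.

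VEGFA, the angiogenic growth factor, rose by 0.56 at its brightest probe (adjusted p = 0.0238), with 8.58 to 9.67 in the HIP1-labelled arrays and 8.43 to 9.24 in the vector arrays. It lost its call in 5 of the fits that left out 1 array (HIP1-labelled 2 or 6, vector 2, 4 or 5; adjusted p up to 0.0706), and its second tested probe had 0.32 and was not called (adjusted p = 0.0906). HIF1A, whose product is regulated mostly through its stability, had 0.03 and VHL -0.04. DDIT4, another target, had -0.21, and SLC2A1, the glucose transporter, 0.13. Of 17 tested glycolysis genes, 3 rose and 0 fell (17.6% called, against 7.94% of all genes, median 0.11). ENO2, an enolase also used as a neuroendocrine marker, had 8.92, 9.11 and 9.52 in the HIP1-labelled arrays, against 7.89, 8.38 and 9.18 in the vector arrays. Only vector array 6 reached into the range of the HIP1-labelled arrays (0.73, adjusted p = 0.00379). HK2 rose by 0.42 and PFKP by 0.33, and PFKP kept its call only without HIP1-labelled array 3 or vector array 3 or 6 (adjusted p up to 0.111 in the rest, 0.0855 without the 3 arrays that stood apart). Without vector array 6, 7 glycolysis genes were called. GAPDH (0.01), PKM (0.09), LDHA (0.16) and ENO1 (0.11) were not called.

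The core letters of a hypoxia response element, ACGTG and GCGTG, were in 11 of 12 promoters of called hypoxia genes (91.7%) and in 23 of 27 promoters of all tested hypoxia genes (85.2%), against 62.4% of those of tested genes and 58.6% of those of genes with a called rise. ACGTG is also part of the E-box CACGTG. The E2F-type letters were in 6 of the 12 called hypoxia promoters (50%) and in 6 of 27 promoters of all tested hypoxia genes (22.2%). Their share was 14.2% for tested genes and 8.75% for genes with a called rise. An ATF4-type element (TGATGNAAN) was in 1 of 11 promoters of called ATF4 targets (9.09%) and in 12 of 53 promoters of all tested ATF4 targets (22.6%), against 2% of those of tested genes. The stretches for P4HA1 (chr10:73096867-73096986, minus strand, match at base -86) and ERO1A (chr14:52695559-52695678, minus strand, base -114), 2 of the larger rises, are printed with the match in capitals.
P4HA1: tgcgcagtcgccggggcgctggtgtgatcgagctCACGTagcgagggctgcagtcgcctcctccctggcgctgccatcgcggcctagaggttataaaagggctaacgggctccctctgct
ERO1A: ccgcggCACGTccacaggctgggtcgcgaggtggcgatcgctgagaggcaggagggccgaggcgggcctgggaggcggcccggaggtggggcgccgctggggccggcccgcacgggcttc

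Some luminal prostate genes rose as well. Of 19 tested luminal markers, 5 were higher and 0 lower (26.3% called, against 7.94% of all genes, median 0.14). In 4 of the 19 the groups did not overlap, against 1.56% of all genes for rises. This list was chosen with earlier results of these data known, so the shares describe it and test nothing. The list mean was 9.54, 9.63 and 9.66 in the HIP1-labelled arrays, against 9.33, 9.40 and 9.48 in the vector arrays, with no overlap. BCHE, butyrylcholinesterase, had 9.91, 10.28 and 10.43 in the HIP1-labelled arrays, against 9.49, 9.58 and 9.71 in the vector arrays. It had the smallest adjusted p of the rises named here (0.65, 1.57-fold, 7.87e-05). OR51E1, an olfactory receptor of the prostate, rose by 0.62, with 7.56 to 7.80 in the HIP1-labelled arrays and 6.92 to 7.45 in the vector arrays. The OR51E1 probe lay above the background level on 6 HIP1-labelled and 4 vector arrays, so its vector mean (7.12) is near background. TMPRSS2, a membrane serine protease and androgen target, had 11.84, 12.01 and 12.29 against 11.18, 11.47 and 11.76 in the vector arrays. The groups were apart (0.56, adjusted p = 0.00133). FOLH1, which encodes prostate-specific membrane antigen, rose by 0.44 at its brightest probe (adjusted p = 0.00291), while its second probe had 0.23 and was not called (adjusted p = 0.276).

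KLK2, a kallikrein protease, rose by 0.45, with 8.31 to 8.66 in the HIP1-labelled arrays and 7.71 to 8.38 in the vector arrays. KLK3, which encodes prostate-specific antigen, was not called: its arrays held 7.96 to 8.35 in the HIP1-labelled group and 7.68 to 8.32 in the vector group (0.20, adjusted p = 0.26). KLK4 (0.20), ACP3 (0.07), HOXB13 (-0.04), KRT8 (-0.11) and KRT18 (0.00) were not called either. Of 24 tested androgen response genes, 4 rose and 2 fell (25% called, against 7.94% of all genes), with a median of 0.07. The rises were NDRG1, TMPRSS2, KLK2 and ABCC4, a drug and prostaglandin exporter (0.26, called only without HIP1-labelled array 4 or vector array 6 among the fits that left out 1 array, adjusted p up to 0.119 in the rest and 0.0738 without the 3 arrays that stood apart). FKBP5, a co-chaperone of steroid receptors and one of the most used androgen targets, fell. It had 8.96, 9.21 and 9.37 in the HIP1-labelled arrays, against 9.33, 9.55 and 9.71 in the vector arrays (-0.37, adjusted p = 0.00807). NCAPD3, a condensin subunit, changed by -0.31. A second ABCC4 probe had 0.14 and was not called. The androgen response list thus held calls in both directions.

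**Figure D4:**
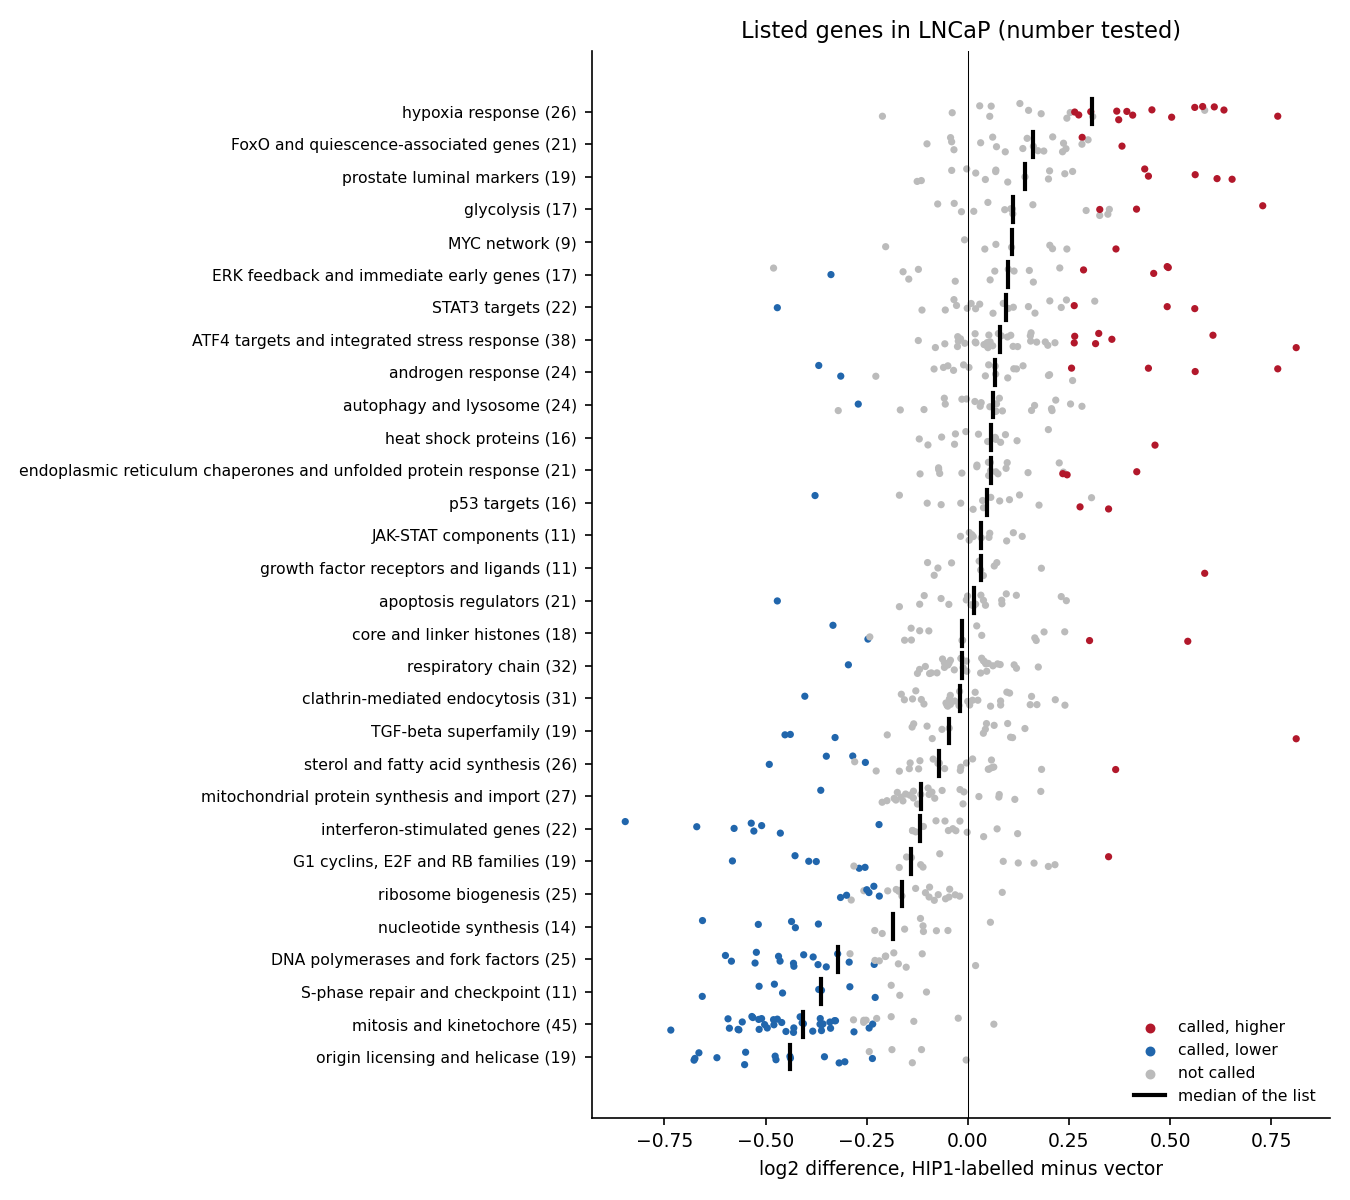
Differences of the tested genes of 30 lists (horizontal axis, log2, HIP1-labelled minus vector), 1 row per list with the number tested in brackets. Each point is a gene, red where called higher, blue where called lower and grey where not called, and the black bar is the median of the list. The 4 replication, S-phase repair and mitosis rows at the bottom have medians of -0.44 to -0.32 and 0 red points, and the hypoxia row at the top has a median of 0.31 and 0 blue points.

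Interferon-stimulated genes fell in part. Of 22 tested, 8 were lower and 0 higher (36.4% called, against 7.94% of all genes), with a median of -0.12. The list mean was 8.33, 8.43 and 8.61 in the HIP1-labelled arrays, against 8.52, 8.69 and 8.83 in the vector arrays, and 4 HIP1-labelled arrays lay below all vector arrays. ISG15, a ubiquitin-like modifier, had the largest fall of any called gene, with 9.21, 10.02 and 10.40 in the HIP1-labelled arrays against 9.89, 10.90 and 11.21 in the vector arrays. The groups overlapped through vector array 6, at 9.89 (-0.85, 1.80-fold lower, adjusted p = 0.0136). IFIT1 and IFIT2, antiviral proteins with tetratricopeptide repeats, changed by -0.67 and -0.51, the membrane protein gene IFITM1 by -0.58, OASL by -0.53 and IFI27 by -0.54. IFI27 lay above the background level on 3 of the HIP1-labelled arrays and kept its call only without HIP1-labelled array 4 or 5 or vector array 3 or 6 (adjusted p up to 0.0926 in the rest). The classical markers MX1 (-0.08), IRF7 (-0.03), IFI44 (-0.06) and IFIH1 (0.07) were not called. The list had 5 falls without HIP1-labelled array 1, 2 or 6 or vector array 1, 2 or 5, and 4 in the fit with the spread shared by both lines.

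**Figure D5:**
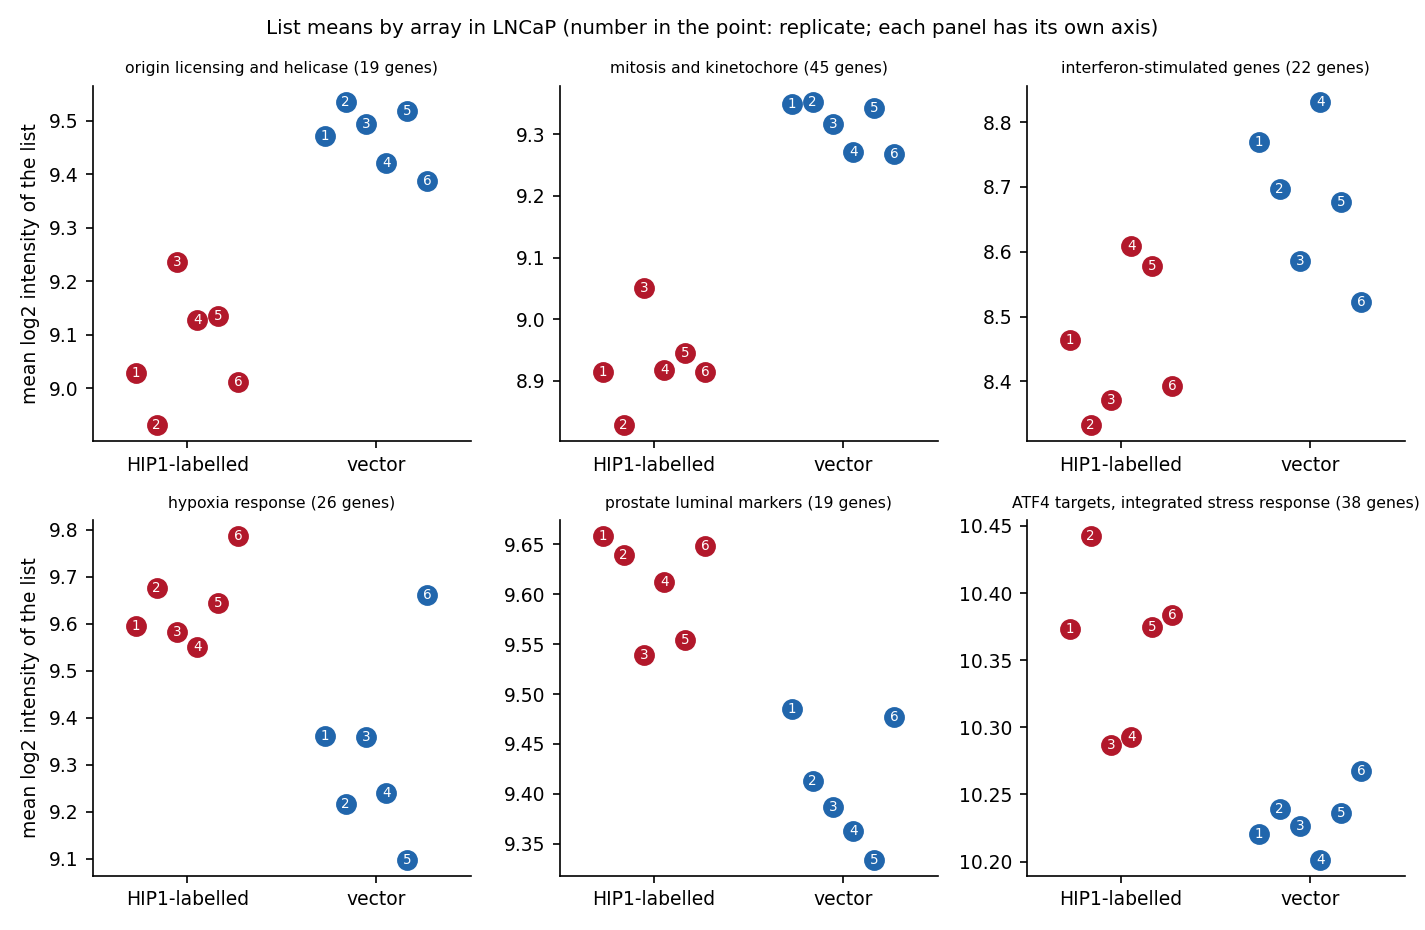
Mean log2 intensity of 6 gene lists on each array (vertical axis, its own range in every panel), with HIP1-labelled arrays in red on the left and vector arrays in blue on the right, numbered by replicate. The licensing and mitotic means of the HIP1-labelled arrays lie below all vector arrays, the luminal and ATF4 means lie above them, the interferon means overlap, and the hypoxia means overlap through vector array 6.

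Of 31 tested genes of clathrin-mediated endocytosis, 1 was called (3.23%, against 7.94% of all genes), TFRC, the transferrin receptor that coated pits take up. It had 10.79, 11.07 and 11.37 in the HIP1-labelled arrays, against 11.24, 11.47 and 11.60 in the vector arrays (-0.40, adjusted p = 0.0086). The clathrin light chains CLTA and CLTB (-0.04 and -0.11), the AP2 subunits AP2A1, AP2A2, AP2B1, AP2M1 and AP2S1 (-0.16 to 0.24), the dynamin gene DNM2 (-0.02) and PICALM (0.10) were not called. Of 11 tested growth factor receptors and ligands, EGFR was called (9.09%, near the share of all genes). It had 8.52, 8.62 and 8.72 in the HIP1-labelled arrays, against 7.84, 7.94 and 8.60 in the vector arrays, with vector array 6 at 8.60 and the other 5 at or below 8.07. The difference was 0.59 (1.50-fold, adjusted p = 0.00128), while a second, dimmer tested probe of EGFR had 0.19 and was not called (adjusted p = 0.165). FGFR4 (0.04), ERBB2 (0.18) and ERBB3 (0.03) were not called.

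In the JAK-STAT pathway, 0 of 11 tested components were called, against 7.94% of all genes. With only 11 genes, 0 calls is near that share. STAT3 had 8.50, 9.22 and 9.43 in the HIP1-labelled arrays, against 8.33, 9.17 and 9.44 in the vector arrays. The low values were those of HIP1-labelled array 4 and vector arrays 3 and 4, the arrays that stood apart. The difference was 0.13 (adjusted p = 0.704), and -0.02 without those 3 arrays. The 2 other STAT3 probes had 0.07 and 0.14 and were not called. The kinase gene JAK2 had 0.10 and the receptor subunit gene IL6ST 0.11. Of 22 tested STAT3 targets, 3 rose (VEGFA, FOS and CEBPB) and 1 fell (BIRC5), a called share of 18.2% against 7.94% of all genes. With 1 array left out, the rises numbered from 1 (HIP1-labelled 2 or 6, vector 2, 4 or 5) to 5 (HIP1-labelled 4 or vector 6), and 5 were called without the 3 arrays that stood apart.

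Of 17 tested genes of ERK feedback and the immediate early response, 4 rose and 1 fell (29.4% called, against 7.94% of all genes). JUND, an AP-1 subunit, had 13.41, 13.50 and 13.67 in the HIP1-labelled arrays, against 12.78, 12.95 and 13.45 in the vector arrays (0.50, adjusted p = 0.0017). FOS rose by 0.49 with no overlap (7.31 to 7.79 in the HIP1-labelled arrays, 6.68 to 7.27 in the vector arrays). Its probe lay above the background level on 6 HIP1-labelled and 4 vector arrays, so its vector mean (7.06) is near background. The phosphatases DUSP1 and DUSP4, which switch off MAP kinases, rose by 0.46 and 0.29, and DUSP4 lost its call without HIP1-labelled array 1 or 5 or vector array 2 or 4 (adjusted p up to 0.0587) and without the 3 arrays that stood apart (0.0729). The DUSP4 probe lay above the background level on 5 HIP1-labelled arrays and 1 vector array, so its vector values are mostly at background. In the fit with the spread shared by both lines, 0 genes of this list were called. SPRY1, a feedback inhibitor of receptor signalling, fell by 0.34 at its brightest probe (its second probe had -0.22, adjusted p = 0.0514), with 8.30 to 8.52 in the HIP1-labelled arrays and 8.67 to 8.89 in the vector arrays. EGR1 had a difference of -0.48 and was not called (adjusted p = 0.118). The TGF-beta list had GDF15 as its only rise among 19 tested genes (21.1% called in either direction, against 7.94% of all genes). ID1, ID2 and ID3, inhibitors of basic helix-loop-helix factors and targets of BMP signalling, were its falls, at -0.45, -0.44 and -0.33. ID2 had 7.54 to 8.06 in the HIP1-labelled arrays and 8.13 to 8.25 in the vector arrays, and none of the 3 genes' groups overlapped. All 3 calls ended in the fit with the spread shared by both lines (adjusted p = 0.441, 0.747 and 0.887).

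Of 16 tested p53 targets, CDKN1A and the cyclin gene CCNG1 rose (0.35 and 0.28) and ZMAT3 fell at its brightest probe (-0.38). The called share was 18.8%, against 7.94% of all genes. ZMAT3 was the 1 gene with called probes in both directions: its 2 dimmer probes rose by 0.33 and 0.36 (adjusted p = 0.043 and 0.0164), so no direction can be given for it. CCNG1 lost its call without HIP1-labelled array 2 or vector array 2 (adjusted p up to 0.0658), the falling ZMAT3 probe without HIP1-labelled array 1, 2 or 6 or vector array 2, 3 or 4 (up to 0.086), and both without the 3 arrays that stood apart (0.0642 and 0.093). Of 21 tested FoxO and quiescence-associated genes, FOXO1 rose by 0.38 and YPEL5 by 0.28, a called share of 9.52% that is near the 7.94% of all genes. The list's median was 0.16, 5 were called without HIP1-labelled array 3 or vector array 6, and YPEL5 lost its call without the 3 arrays that stood apart (adjusted p = 0.0811). Of 9 tested genes of the MYC network, 1 was called (11.1%, against 7.94% of all genes). MNT, a repressor that competes with MYC for its partner MAX, rose by 0.37, with 8.36 to 8.68 in the HIP1-labelled arrays and 7.89 to 8.41 in the vector arrays. Without the 3 arrays that stood apart, 2 genes of this list were called, and without HIP1-labelled array 4, 3. MYC had 0.20 and was not called (adjusted p = 0.138). Of 21 tested apoptosis regulators, only BIRC5 was called (4.76%, against 7.94% of all genes).

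Ribosome biogenesis genes lay lower by a small amount: 24 of 25 tested had a negative difference, the median was -0.16, and 6 were called lower and 0 higher (24% called, against 7.94% of all genes). The largest were RRP9 (-0.31) and NOP16 (-0.30). The count was 7 without vector array 6, 1 without HIP1-labelled array 6, 2 without HIP1-labelled array 1 or 2 or vector array 1, 4 or 5, 3 without vector array 2, 1 with the spread shared by both lines and 2 without the 3 arrays that stood apart. Of 27 tested genes of mitochondrial protein synthesis and import, only TOMM40, the import channel, was called (3.7%, against 7.94% of all genes). It fell by 0.36 (adjusted p = 0.0013). Of 32 respiratory chain genes only ATP5MC1 was called (3.1%). It fell by 0.30, a call lost without HIP1-labelled array 2 or 6, vector array 2, 3, 4 or 5 (adjusted p up to 0.0787) or the 3 arrays that stood apart (0.136). Its second, dimmer probe fell by 0.47 (adjusted p = 0.00204). In sterol and fatty acid synthesis, 1 of 26 rose and 4 fell (19.2% called, against 7.94% of all genes). SCD, the stearoyl-CoA desaturase, rose by 0.37, with 12.38 to 12.66 in the HIP1-labelled arrays and 11.93 to 12.46 in the vector arrays. ACAT2, at the entry to the sterol pathway, had 9.43 to 10.02 against 10.02 to 10.42 in the vector arrays and changed by -0.49 (adjusted p = 0.00204). EBP, MVK and NSDHL, enzymes of the same pathway, changed by -0.35, -0.28 and -0.25, while HMGCS1 (-0.02), LSS (-0.14) and FASN (-0.02) were not called. NSDHL lost its call without HIP1-labelled array 5 or vector array 3 or 4 (adjusted p up to 0.0617) and without the 3 arrays that stood apart (0.131). Of 24 autophagy and lysosome genes, only GLA was called (4.17%, against 7.94% of all genes). It fell by 0.27, a call lost without HIP1-labelled array 2 (adjusted p = 0.0577) and without the 3 arrays that stood apart (0.0604), where 1 autophagy gene and 1 respiratory chain gene were called higher.

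Marker genes of other cell types gave few values to compare. Of 14 to 20 genes in each of the basal, mesenchymal, leukocyte and endothelial, and neuroendocrine lists, 1, 4, 2 and 4 passed the filter. S100A2 had 0.12, CD68 0.11 and VWF 0.00, and none was called. VIM rose by 0.31 and lost its call without HIP1-labelled array 1, 2 or 6, without vector array 1, 2, 4 or 5 (adjusted p up to 0.1) and without the 3 arrays that stood apart (0.058), and its second probe had 0.18 and was not called. ENO2 was the only neuroendocrine marker called.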

How the data were processed

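Total RNA was extracted with a column kit, checked on a Bioanalyser and turned into biotin-labelled cRNA, per the labels' protocols. The authors deposited 1 table of log2 intensities for 48803 probes on 24 arrays, with 0 values missing. Once sorted, these deposited log2 columns lie within 0.0517 of each other, so the arrays nearly share a distribution. The sources used here name neither a normalization method nor software. Each LNCaP array had 12114 to 12119 probes above the background level and a median of 6.56. Of 24 raw value columns in a second table, 18 matched no label and none was used. The level was 6.97, the commonest value over all 24 arrays (6.48) plus 3 SDs of the values below it (0.163 each). Of the probes, 28098 had 1 gene symbol, 13 several and 20692 none, in GEO's platform annotation checked against RefSeq (28059 matched).

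The test was limma 3.58.1 (lmFit and eBayes, two-sided) in R 4.3.3 on the 12 LNCaP arrays without covariates, tested on simulated data. It was fitted to the deposited values as they stand, and the number of arrays limits its precision. Named genes were HIP1, HIP1R and STAT3, the 15 largest rises and 15 largest falls among called genes without overlap, up to 6 called members of each list (with none called, 2 with the smallest p) and the cell type markers. Other list members are given as values. XIST and Y-linked genes were left out. The members, the 34 lists (903 genes, 622 tested) and the promoter patterns were chosen with earlier results of these data known. Alternatives changed the filter, the prior, the weights, the scaling, the replicate block and the arrays in the fit.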

Additional observations from a re-analysis of the deposited data

Results flagged for a closer look

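In groups of 6 arrays, a highest or lowest value was singled out when its gap to the nearest other array exceeded 0.625 of the group's range. Of 310 groups examined (named genes and list means), 26 held such a value, and chance gives about 1 in 20. All values are log2 intensities.

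Among the HIP1-labelled arrays, array 2 was far below the others for CDC45 (8.80, next 9.21), CENPM (9.37), FAM83D (8.52), DUT (7.40) and H2AZ1 (13.28). Array 4 was far below for STAT3 (8.50, next 9.11), H2AX (7.59), HSPA1B (11.81) and the heat shock mean (10.98). Array 5 was low for OR51E1 (7.56), array 3 low for STC2 (10.28), array 6 high for ERO1A (9.41) and array 1 high for XBP1 (12.57).

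Among the vector arrays, array 6 was far above the others for CDKN1A (12.48, next 12.14), EGFR (8.60, next 8.07) and the p53 target mean (9.89). The same array was far below for TIMELESS (9.74), POLA2 (9.33) and the means of ribosome biogenesis (9.79), mitochondrial protein synthesis and import (10.26) and the respiratory chain (11.70). Array 3 was low for AURKB (8.87), array 4 for E2F7 (7.17), array 5 for NCAPD3 (8.19) and array 2 for CCNG1 (9.89), while array 2 was high for IMP4 (12.08).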

How the results depend on the processing

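The count of 880 called probes (378 higher, 502 lower) became 549 (219 and 330) without a filter on dim probes and 235 (77 and 158) with 1 spread for both lines. It was 882 with probes above the level on all 12 arrays, 914 with an intensity trend and robust prior, 1171 with array weights, 880 after centring each array and 753 without the 3 arrays that stood apart, of which 600 were among the 880. Leaving out 1 array gave 519 (HIP1-labelled array 2) to 1193 (vector array 6) called probes, 198 to 559 higher and 321 to 634 lower. The replicate block gave 868 (386 and 482), 766 of them shared. Deviations of same-numbered arrays correlated at -0.24 to 0.32, the highest for replicate 4, whose arrays both stood apart. Only HIP1-labelled array 6 and vector arrays 1 and 4 matched their own number best, and nothing else pairs the arrays. The HIP1 probe stayed negative and uncalled in all settings, from -0.161 to -0.078 with 1 array left out. Of 114 called named genes, 113 kept their call with array weights, 110 with the trend, 107 with the block, 96 without the 3 arrays, 95 without the filter and 53 with the shared spread, and 89 whichever array was left out. The uncalled STAT3 turned to -0.0185 without the 3 arrays. The uncalled VWF turned to 0.0131 with array weights, 0.0633 without the 3 arrays, and ranged from -0.0452 to 0.0425 with 1 array left out. The cause was not tested. Differences of dim genes are limited by signal over background.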

Other observations

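The groups below were chosen after their values were seen and are given as descriptions. Of 17 tested tubulins, the subunits of microtubules, 7 were called lower (TUBA3D, TUBG1, TUBA1C, TUBA1B, TUBA1A, TUBB4B and TUBB) and 0 higher, with a median difference of -0.23, against 0.006 for all genes, of which 4.61% were called lower. The difference was positive for 4 of the 17. Several tubulin genes are near-identical, so their probes may share signal. Of 6 tested metallothioneins, small proteins that bind zinc and copper, 6 had a negative difference, with a median of -0.26. Of these, 3 were called lower (MT1F, MT1E and MT1G), against 4.61% of all genes. Of 73 cytosolic ribosomal protein genes, 2 were called higher (RPS24 and RPL22) and 0 lower, with a median of 0.04. The shares of all genes were 3.33% higher and 4.61% lower. Of 30 proteasome subunit genes 0 were called, against 7.94% of all genes in either direction, with a median of -0.07. Of 21 small nucleolar RNAs, 2 rose (SNORD31 and SNORA70) and 2 fell (SNORA33 and SNORA64), against the same 3.33% and 4.61% of all genes.

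The largest called difference was that of COXFA4L2, the gene listed in older annotation as NDUFA4L2 and known as a HIF target, also named after its values were seen. It averaged 11.61 ± 0.34 in the HIP1-labelled arrays and 10.74 ± 0.68 in the vector arrays (SD, n = 6 each), a difference of 0.87 (limma adjusted p = 0.0216) with overlapping groups.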
